A study of Homo sapiens with 6 samples.

Results

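HCC827ER and HCC827GR are drug-resistant derivatives of HCC827, a human lung adenocarcinoma line that carries an activating EGFR deletion and responds to EGFR tyrosine kinase inhibitors. The comparison is of 1 sequenced library of HCC827ER with 1 of HCC827GR, 2 of the 6 libraries of the series, over the 16000 genes that both deposited tables list out of 17160 in either. HCC827 itself, also 1 library, is given beside them to show which of the derived lines had moved from their shared parent. All were grown alike in RPMI medium with serum, and the other libraries are PC-9, a lung adenocarcinoma line of another origin, and its derivatives PC-9GR and PC-9ER. The labels do not spell out GR or ER, do not name a drug in the medium, and do not say whether a derived line is 1 clone or a pool of survivors. The label of 1 library reads HCC82GR and was taken as HCC827GR.

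Lung adenocarcinoma cells with mutant EGFR depend on that receptor, which drives the RAS-ERK and PI3K-AKT pathways. Lines that survive prolonged EGFR inhibition are known to arrive there by different routes, among them a second receptor that takes over the signal, a shift from epithelial to mesenchymal genes, or a slowly dividing tolerant state. Epithelial cells of the lung can also make secreted defence and acute-phase proteins, which in the body come mainly from the liver and are switched on by NF-kB, STAT3 and HNF1 factors.

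There is no second culture of any line, so no difference below has a replicate check and none carries a p-value. Intervals are at 95% and cover counting error only. Levels are counts per 1000000 (CPM) after scaling of the libraries, and ratios are log2 ratios of CPM with a prior count of 2. A gene was measured when HCC827ER or HCC827GR had at least 1 CPM, which 12537 of the 16000 genes did and 3463 did not. A gene under 1 CPM in either line passed only through the other and could not be lower there. A difference was counted when it was at least 2-fold. Total counts were 14529347 for HCC827, 14975052 for HCC827GR and 17291552 for HCC827ER, and 3 counts, the most that a count of 0 allows, correspond to 0.197, 0.185 and 0.211 CPM. HCC827ER comes from the second deposited table and the other 2 lines from the first, so the line and the table cannot be told apart. Of the epithelial markers, KRT7, KRT8, KRT18, KRT19, EPCAM and CDH1 were above 26 CPM in all 3 lines. The lung lineage factor NKX2-1 was at 14.5 CPM in HCC827, 2.53 in HCC827GR and 0 in HCC827ER. NAPSA, a further lung lineage marker, was at 27.3, 2.84 and 15.2 CPM in the same order, so here HCC827GR was the lowest line. The surfactant gene SFTPB was not above the floor of 3 counts in HCC827GR or HCC827ER.

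The derived lines differed from each other widely. Of the measured genes, 2271 (18.1%) were higher in HCC827ER than in HCC827GR by 2-fold or more and 2306 (18.4%) were lower. The median log2 ratio of all measured genes was 0.02. The difference reached 16-fold for 96 of the higher genes and 24 of the lower ones. HCC827ER stood further from the parent than HCC827GR. In HCC827ER, 2284 genes (18.2%) were higher and 2217 (17.7%) lower than in HCC827, against 1012 (8.07%) and 963 (7.68%) in HCC827GR. PC-9ER, the other line of the second table, had 627 genes (5%) higher and 781 (6.23%) lower than PC-9. These counts, too, are over the genes measured in HCC827ER or HCC827GR, whatever their level in HCC827, PC-9 or PC-9ER. Genes expressed only in those other lines are not among them. Among the genes higher in HCC827ER than in HCC827GR, 1135 had moved at least 2-fold from HCC827 in HCC827ER alone, 324 in HCC827GR alone, 107 in both lines in opposite directions and 272 in both in the same direction, and for 433 neither line was 2-fold from the parent. Among the genes lower in HCC827ER the counts were 1436, 219, 36, 154 and 461 in the same order. Both ratios use the same HCC827 library, so these classes share its counting error.

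The ratio of HCC827ER to HCC827GR also moved with the length and base composition of transcripts, and this touches every gene group below. The median log2 ratio went from 0.99 in the shortest of 10 equal bins of transcript length to -0.88 in the longest, and from -0.54 in the lowest of 5 equal bins of GC content to 0.61 in the highest. HCC827GR against HCC827 ran between -0.12 and 0.13 over the same length bins. PC-9ER against PC-9, which also crosses the tables, ran from 0.38 to -0.43 over length and from -0.04 to 0.02 between the lowest and highest GC bins. Of 4522 differing genes with a known length, 2330 stayed at least 2-fold the same way after the median of genes of like length and GC was taken off, and 54 changed sign. After this centring 1424 genes were at least 2-fold lower in HCC827ER, against 2306 before, and 54.4% of the genes past 2-fold were higher. Centred counts of list members are therefore not to be read against the uncentred shares of all genes. Centred values are given below for many results but not for every list or gene. The part of length and GC in any single gene was not tested.

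**Figure D1:**
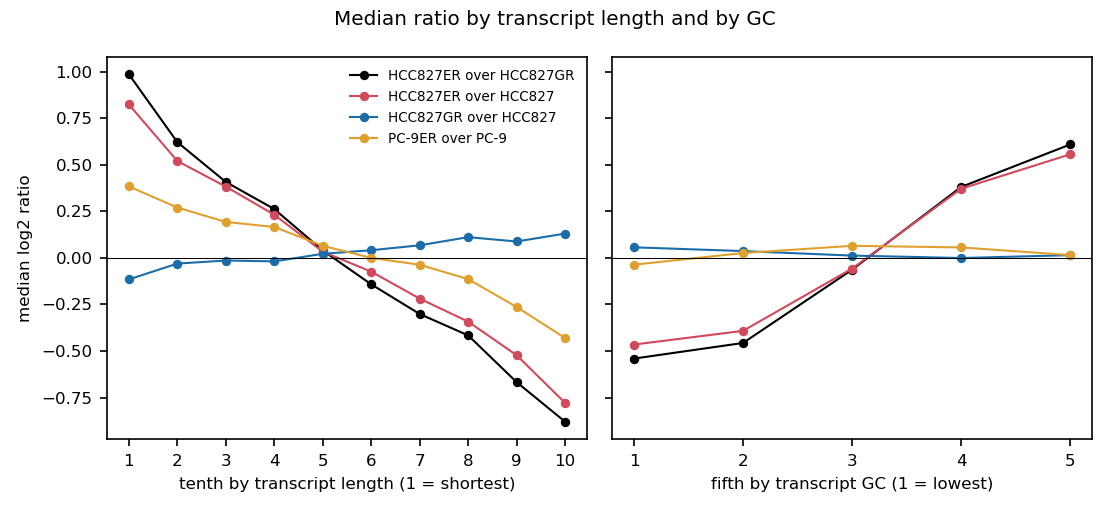
Median log2 ratio of measured genes in 10 bins of transcript length (left) and 5 bins of transcript GC (right), for 4 pairs of libraries. The line for HCC827ER over HCC827GR falls from 0.99 to -0.88 with length and climbs from -0.54 to 0.61 with GC, while HCC827GR over HCC827 stays near 0.

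The largest differences were in genes of secreted plasma and defence proteins. LCN2, which encodes lipocalin-2, an iron-sequestering defence protein, was at 168 CPM in HCC827, 7.97 in HCC827GR and 3267 in HCC827ER. HCC827ER was thus far above the parent and HCC827GR far below it, and the lines differed 404-fold (log2 ratio 8.66, interval 8.43 to 8.94). FGG, the fibrinogen gamma chain, was at 4.02, 1.36 and 399 CPM in the same order, a 269-fold difference (log2 ratio 8.07, interval 7.60 to 8.87). FGA, the fibrinogen alpha chain, was at 1.91, 1.05 and 157 CPM (log2 ratio 7.07). CRP, the C-reactive protein of clinical blood tests, was at 0, 0.618 and 166 CPM (log2 ratio 7.81, interval 7.18 to 9.13), at least 838-fold above the floor of HCC827. For these 4 genes HCC827ER was the high line, and HCC827GR was never above 8 CPM.

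The promoters of LCN2, FGA and FGB, which held matches to the motifs below, are shown because HCC827ER expressed these genes together. They are from the RefSeq promoter table (GRCh38.p14), which holds up to 250 bases before each start site, cut to the stretch outside annotated exons. Capitals mark matches to the NF-kB-like motif (GGGA and CC with any 4 bases between), to TTCNNNGAA, the STAT-like motif, or to GTTAAT, the HNF1-like motif, on either strand. TTCNNNGAA reads the same on both strands, and in LCN2 2 overlapping matches to the NF-kB-like motif on opposite strands make 1 run.
LCN2, chr9:128149265-128149440, plus strand: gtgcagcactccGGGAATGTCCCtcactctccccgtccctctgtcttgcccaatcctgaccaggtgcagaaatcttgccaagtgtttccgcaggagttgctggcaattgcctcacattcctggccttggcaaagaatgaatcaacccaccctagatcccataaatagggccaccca
FGA, chr4:154590767-154590992, minus strand: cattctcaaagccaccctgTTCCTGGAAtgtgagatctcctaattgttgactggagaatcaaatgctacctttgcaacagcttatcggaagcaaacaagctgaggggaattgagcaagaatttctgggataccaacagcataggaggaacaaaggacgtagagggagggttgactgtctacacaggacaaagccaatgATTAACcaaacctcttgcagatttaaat
FGB, chr4:154562730-154562955, plus strand: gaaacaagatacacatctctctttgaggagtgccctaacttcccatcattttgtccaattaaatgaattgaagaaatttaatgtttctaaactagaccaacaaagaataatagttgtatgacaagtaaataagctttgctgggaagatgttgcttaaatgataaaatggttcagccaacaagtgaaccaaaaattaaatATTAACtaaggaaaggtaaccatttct
The NF-kB-like matches in LCN2 begin 176 and 175 bases before its start site, and FGA has a STAT-like match at 231 bases and an HNF1-like match at 52 bases before its own. FGB, the third fibrinogen chain, has an HNF1-like match at 51 bases. CRP, whose 250 bases all lie outside exons, has 0 matches to any of these motifs. The plasma protein gene SERPINA3 has 0 in its 156 bases, and FGG and CFB have 0 bases left outside exons. Shares were counted over the full 250 bases of each entry, exons included, unlike the cut stretches printed here. Over the 17 promoter entries of acute-phase genes in the table, 5 held the NF-kB-like motif (29.4%, against 22.6% of all 35116 entries), 5 the STAT-like motif (29.4% against 6.57%) and 6 the HNF1-like motif (35.3% against 6.23%). A gene can have more than 1 entry. The matches are letters in a window and say nothing of binding in these cells.

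Acute-phase proteins are the plasma proteins that change in blood during inflammation. Of the 15 genes with the highest ratios, 8 belong to this class (LCN2, FGG, CRP, FGA, SAA2, LBP, SAA1 and CP), and a list of 22 was therefore written after those values had been seen, so its count is a description of a set chosen for its response. All 15 measured members were at least 2-fold higher in HCC827ER than in HCC827GR, against 18.1% of all measured genes, with a median log2 ratio of 5.69 and of 5.60 after centring by length and GC. Among them CRP, LBP and CP were under 1 CPM in HCC827GR. These passed the filter through HCC827ER alone and could not have been counted as lower. Against HCC827 all 15 were higher in HCC827ER, while in HCC827GR 1 was higher and 6 lower. Over all genes, 18.2% were higher than HCC827 in HCC827ER, and 8.07% were higher and 7.68% lower in HCC827GR. The remaining 7 members were under 1 CPM in both lines or not in both tables. In PC-9ER against PC-9, 3 of the 15 were higher and 3 lower, against 5% and 6.23% of all genes.

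SAA1, a serum amyloid A, was at 11.3 CPM in HCC827, 10.6 in HCC827GR and 900.3 in HCC827ER, so that only HCC827ER stood away from the parent (84.2-fold above HCC827GR). SAA2, a near-identical paralog with which reads may be shared, was at 3.55, 1.11 and 145 CPM. C3, the central complement protein, was at 10.4, 19.1 and 426 CPM, a log2 ratio of 4.47 between the derived lines. CFB, complement factor B, was at 46.5, 88.7 and 805 CPM. These complement genes were higher than HCC827 in both derived lines, past 2-fold only in HCC827ER. LBP, which binds bacterial lipopolysaccharide, was at 0.132, 0.247 and 36.5 CPM. SERPINA1, alpha-1-antitrypsin, followed the pattern of LCN2, with 92.8 CPM in HCC827, 9.15 in HCC827GR and 254 in HCC827ER. CP, ceruloplasmin, rested on 2 counts in HCC827GR, and its log2 ratio of 5.69 had an interval of 4.79 to 9.72. In these genes, too, HCC827ER was the highest of the 3 lines. FGB was already expressed in the parent, at 120 CPM, and was at 190 in HCC827GR and 1150 in HCC827ER. In PC-9ER, LCN2 was at 974 CPM beside 821 in PC-9 and SAA1 at 61.6 beside 20.1, while CRP, FGA, FGB and FGG were at 0 in both.

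**Figure D2:**
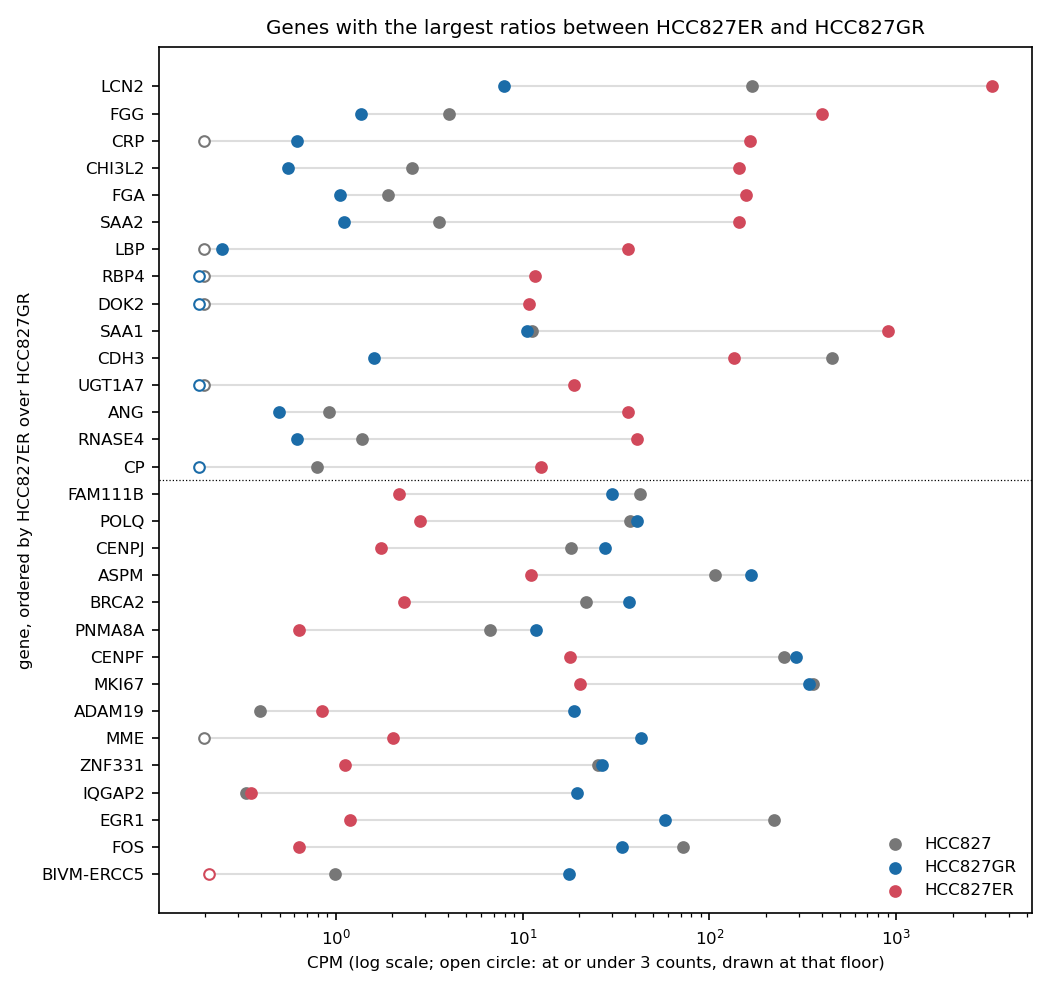
CPM on a log axis in HCC827 (grey), HCC827GR (blue) and HCC827ER (red) for the 15 genes with the highest and the 15 with the lowest ratio of HCC827ER to HCC827GR. In the upper block HCC827ER is the highest point for every gene except CDH3, where HCC827 is, and for LCN2 and CDH3 HCC827GR also lies far below HCC827. An open circle marks a value at or under 3 counts, drawn at that floor. In the lower block EGR1 and FOS go down from HCC827 through HCC827GR to HCC827ER, and for IQGAP2, MME and ADAM19 HCC827GR is the high line.

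The other genes with the highest ratios were of mixed kind. CHI3L2, a chitinase-like secreted protein, was at 2.57 CPM in HCC827, 0.556 in HCC827GR and 143 in HCC827ER. RBP4, the plasma carrier of retinol, had 0 counts in HCC827GR and 11.6 CPM in HCC827ER, at least 62.5-fold higher. DOK2, a docking protein of receptor tyrosine kinase signalling, also had 0 counts in HCC827GR and 10.8 CPM in HCC827ER, at least 58.3-fold higher. Neither of these genes was above its floor of 3 counts in HCC827. ANG and RNASE4, secreted ribonucleases, overlap in the genome, so their values of 36.5 and 41.1 CPM in HCC827ER, beside 0.494 and 0.618 in HCC827GR, may share reads. UGT1A7 shares exons with the rest of the UGT1A cluster, and its 3 counts in HCC827GR against 18.7 CPM in HCC827ER are uncertain for that reason. CDH3, P-cadherin of epithelial junctions, was the exception among the 15. It was at 454 CPM in HCC827, 1.61 in HCC827GR and 135 in HCC827ER, so both derived lines were below the parent, HCC827GR by far the more.

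Inflammatory cytokines were also higher in HCC827ER. Of 36 measured NF-kB and inflammation genes, 20 were at least 2-fold higher in HCC827ER than in HCC827GR and 2 were lower, against 18.1% and 18.4% of all genes, with a median log2 ratio of 1.51 (1.26 after centring). This list shares SAA1, SAA2, C3 and CFB with the acute-phase set. CCL2 and IL1B were under 1 CPM in HCC827GR, passed the filter through HCC827ER alone and could not have been counted as lower. The median was 1.67 for HCC827ER over HCC827 and 0.53 for HCC827GR over HCC827. CXCL8, the neutrophil chemokine interleukin-8, was at 8.56 CPM in HCC827, 2.78 in HCC827GR and 116 in HCC827ER (log2 ratio 5.32, interval 4.96 to 5.84). CXCL1, a related chemokine, was at 6.91, 1.92 and 100.1 CPM. CXCL5 was at 85.4, 42.7 and 852 CPM. In these chemokines HCC827GR was below the parent and HCC827ER above it. CCL2, which attracts monocytes, was at 0.0658, 0.556 and 31 CPM, and IL1B, interleukin-1 beta, at 0.856, 0.865 and 19.9. The 2 genes on the other side were NFKB1, an NF-kB subunit, with a log2 ratio of -1.13, and TNFAIP3, a feedback inhibitor of the pathway, at 21.4 CPM in HCC827, 31.7 in HCC827GR and 10.7 in HCC827ER. SPP1, osteopontin, a secreted phosphoprotein outside the rule for named genes and singled out after its values were seen, was at 81.7, 158 and 6264 CPM.

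Genes of antigen presentation went with them in part. Of 22 measured members 11 were higher in HCC827ER than in HCC827GR and 2 lower, against 18.1% and 18.4% of all genes, with a median log2 ratio of 0.96 that was 0.59 after centring, when 7 remained past 2-fold higher and 0 lower. B2M, the light chain of class I molecules, was at 343 CPM in HCC827, 455 in HCC827GR and 1875 in HCC827ER. HLA-B was at 56.2, 68.9 and 376 CPM, with the reservation that HLA genes share reads. For both, HCC827GR lay near the parent and HCC827ER apart from it.

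Proliferation genes were the clearest group on the low side of HCC827ER. Of 43 measured cell cycle and replication genes, 34 were at least 2-fold lower in HCC827ER than in HCC827GR and 0 higher, against 18.4% and 18.1% of all genes. The median log2 ratio was -1.46, and -1.58 after centring by length and GC, when 37 were lower. HCC827GR stayed near the parent (median -0.17, with 1 of 43 at least 2-fold lower), whereas HCC827ER lay below it (median -1.67, 39 of 43 lower). Over all genes, 7.68% were lower than HCC827 in HCC827GR and 17.7% in HCC827ER. MKI67, which encodes the proliferation marker Ki-67, was at 359 CPM in HCC827, 340 in HCC827GR and 20.4 in HCC827ER, a log2 ratio of -4.05 (interval -4.24 to -3.89). CENPF, a kinetochore protein of dividing cells, was at 250, 291 and 17.8 CPM in the same order. Both have long transcripts, and their centred log2 ratios were -3.22 and -3.09. CDC20, which activates the anaphase-promoting complex and has a short transcript, was at 570, 464 and 169 CPM, a log2 ratio of -1.46 and of -2.25 after centring. The replication helicase gene MCM10 was at 18.6, 19.3 and 1.9 CPM, and the mitotic transcription factor FOXM1 at 446, 469 and 103. In each of these genes HCC827GR lay close to HCC827 and HCC827ER was the low line.

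Promoters of CDC20 and MKI67 are printed because the group moved together and because mitotic promoters are known to carry CHR and CCAAT elements. Capitals mark TTTGAA, the CHR letters, and CCAAT, the CCAAT box, on either strand (RefSeq, GRCh38.p14, as above). In MKI67 1 run of capitals joins a CHR and a CCAAT match.
CDC20, chr1:43358731-43358954, plus strand: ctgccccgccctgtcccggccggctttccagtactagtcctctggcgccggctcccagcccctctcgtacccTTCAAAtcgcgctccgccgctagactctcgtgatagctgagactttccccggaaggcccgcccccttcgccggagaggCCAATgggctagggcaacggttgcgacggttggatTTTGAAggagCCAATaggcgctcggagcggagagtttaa
MKI67, chr10:128126424-128126673, minus strand: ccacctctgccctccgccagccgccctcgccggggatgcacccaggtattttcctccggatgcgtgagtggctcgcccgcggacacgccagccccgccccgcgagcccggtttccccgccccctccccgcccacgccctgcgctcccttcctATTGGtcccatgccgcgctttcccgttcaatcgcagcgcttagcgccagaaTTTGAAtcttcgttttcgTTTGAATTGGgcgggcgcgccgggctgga
In CDC20 the CHR letters 65 bases before the start site stand beside a CCAAT box at 55 bases. In MKI67 they occur at 47 and 29 bases. Not every promoter of the group held both elements. CENPF, in 250 bases, and the cyclin gene CCNB2, in 182 bases, each held CCAAT 3 times and no CHR letters, whereas the topoisomerase gene TOP2A held both. Of 46 promoter entries of the cell cycle list, read over the full 250 bases, 36 held CCAAT (78.3%, against 32% of all entries) and 12 held TTTGAA (26.1% against 13.3%). CCAAT was not particular to this list. It was also in 10 of the 17 acute-phase entries (58.8%) and in 10 of 32 entries of the epithelial list (31.2%). The list was not uniform: UBE2C, TK1 and E2F1 had log2 ratios of -0.71, -0.69 and -0.80, short of 2-fold.

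The other genes with the lowest ratios included further genes of dividing cells. ASPM, a spindle protein, was at 107 CPM in HCC827, 166 in HCC827GR and 11 in HCC827ER. BRCA2, of homologous recombination, was at 21.9, 37.1 and 2.32 CPM, and POLQ, a polymerase of DNA end joining, at 37.8, 41.1 and 2.81. ZNF331, a zinc finger gene, was at 25.2, 26.6 and 1.12 CPM. For another 3 genes of the lowest 15, HCC827GR was instead the line far above the parent. IQGAP2, a scaffold of the cytoskeleton, was at 0.329, 19.7 and 0.351 CPM. ADAM19, a membrane protease, was at 0.395, 18.8 and 0.842 CPM. MME, the cell-surface peptidase neprilysin, was at 0, 43 and 2.04 CPM, so that HCC827GR was at least 218-fold and HCC827ER at least 10.3-fold above the floor of HCC827. BIVM-ERCC5 is a readthrough of 2 neighbouring genes whose reads it shares, and its 17.7 CPM in HCC827GR against 0 in HCC827ER is uncertain for that reason.

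Regulators of the G1 phase differed in both directions. Of 15 measured cyclin D genes, kinases and inhibitors, 1 was higher in HCC827ER and 6 lower, against 18.1% and 18.4% of all genes, with a median log2 ratio of -0.63. CCND1, cyclin D1, was at 412 CPM in HCC827, 238 in HCC827GR and 77.9 in HCC827ER. CDK6, its kinase partner, was at 122, 174 and 43.2 CPM, and CDK4, the other partner, at 3040, 2726 and 4754. RB1, the retinoblastoma gene that these kinases inactivate, was at 41.8, 101 and 27.2 CPM. CDKN1A, the inhibitor p21, was at 8.89, 4.14 and 6.67 CPM, a log2 ratio of 0.67 between the derived lines.

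The immediate early genes FOS and EGR1, which ERK signalling induces, were low in HCC827ER. FOS, a subunit of the AP-1 factor, was at 72.2 CPM in HCC827, 34.1 in HCC827GR and 0.632 in HCC827ER, a log2 ratio of -5.50 (interval -6.89 to -4.82). EGR1, an early growth response factor, was at 222, 58 and 1.19 CPM, a log2 ratio of -5.47 (interval -6.39 to -4.92). In both genes HCC827GR lay below the parent and HCC827ER below HCC827GR. The whole list of ERK output and feedback genes did not follow them. Of 24 measured, 3 were higher in HCC827ER than in HCC827GR and 5 lower, with a median log2 ratio of -0.27, against 18.1% and 18.4% of all genes. DUSP4, an ERK phosphatase, was at 29.6, 4.64 and 37 CPM, and IER3 at 81.1, 28.2 and 184, in both of which HCC827GR was the low line. DUSP6, the other main ERK phosphatase, was at 15.2, 1.42 and 0.421 CPM, low in both derived lines. Against the parent, 12 of the 24 were lower in HCC827GR and 13 in HCC827ER, where 7.68% and 17.7% of all genes were lower.

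The receptors of the EGFR family were lower in HCC827GR than in HCC827ER. EGFR itself was at 5213 CPM in HCC827, 585 in HCC827GR and 1299 in HCC827ER. Both derived lines were below the parent, HCC827GR the more so, and the derived lines differed 2.22-fold (log2 ratio 1.15, interval 1.12 to 1.19). After centring for its long transcript the log2 ratio was 1.98. ERBB2, the partner receptor HER2, was at 112, 37.8 and 85.2 CPM. ERBB3, the kinase-impaired partner HER3, was at 78.3, 9.08 and 78.1 CPM, so HCC827ER was at the level of the parent and HCC827GR was 8.49-fold under HCC827ER. Among the ligands, TGFA was at 48.7, 12.5 and 39.4 CPM, and EREG, epiregulin, at 298, 123 and 55. The ligands thus differed in which derived line was the lower. ERRFI1, a feedback inhibitor of EGFR, was at 255, 217 and 61.8 CPM. Of 14 measured receptors, ligands and regulators 4 were higher in HCC827ER and 5 lower, against 18.1% and 18.4% of all genes, with a median log2 ratio of -0.49. After centring by length and GC 3 were higher and 2 lower, with a median of -0.29. The list as a whole therefore held differences in both directions. Of the receptors that can take over from EGFR, MET, the receptor of hepatocyte growth factor, was at 590, 430 and 115 CPM (log2 ratio -1.90, -1.11 after centring). AXL, which goes with mesenchymal states, was at 24.2, 138 and 67.8 CPM, above the parent in both derived lines.

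EGFR did not stand alone among its neighbours on chromosome 7. When genes with at least 10 CPM were laid out in the order of their positions, a run of 24 genes on chromosome 7 around EGFR, chr7:45888488-65401136 in the RefSeq gene table, had a median log2 ratio of 1.34 between HCC827ER and HCC827GR. The median was -1.81 for HCC827GR over HCC827 and -0.61 for HCC827ER over HCC827, so the genes were low in HCC827GR. SEC61G, a subunit of the channel that moves proteins into the endoplasmic reticulum, was at 1851 CPM in HCC827, 115 in HCC827GR and 1923 in HCC827ER. VOPP1, a vesicle protein gene, was at 2151, 216 and 1637 CPM, and LANCL2, a LanC-like protein gene, at 521, 73.1 and 334. CHCHD2, a mitochondrial protein, was at 1447, 287 and 1932 CPM. For these genes HCC827ER lay near the parent and HCC827GR well under it, whereas EGFR between them was lower in HCC827ER too. Of the 24, 13 were at least 2-fold higher in HCC827ER and 6 at least 2-fold lower, the latter FIGNL1, 2 unnamed loci and the zinc finger genes ZNF736, ZNF680 and ZNF107. Runs called afresh on centred values included 1 of 23 genes at nearly the same place, with a median of 1.46. RNA levels do not give the number of gene copies, which was not measured in these files.

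**Figure D3:**
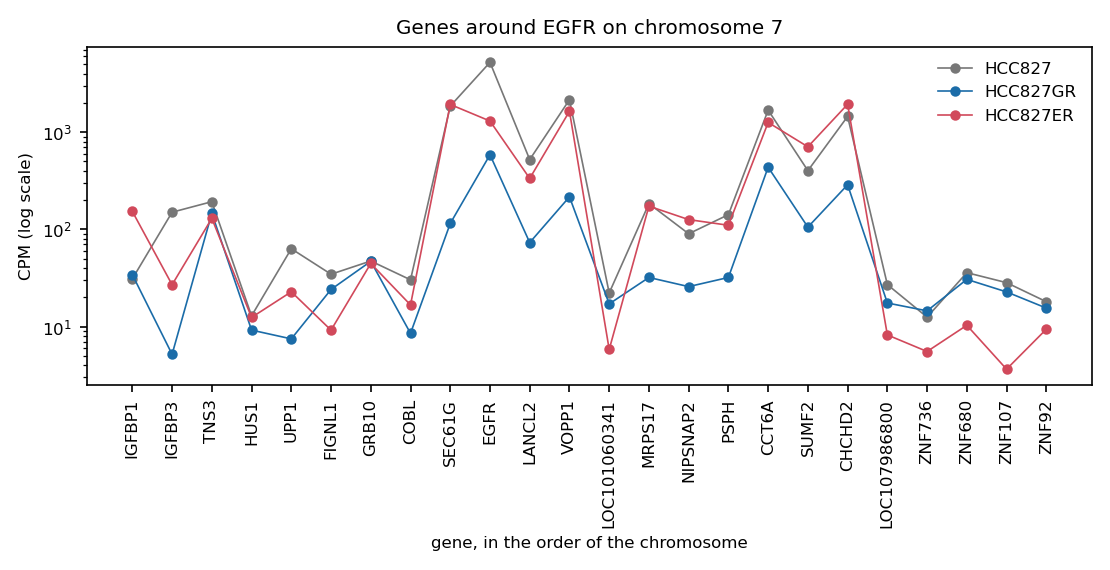
CPM on a log axis for the 24 genes around EGFR in their order on chromosome 7, in HCC827 (grey), HCC827GR (blue) and HCC827ER (red). From SEC61G to CHCHD2 the blue points lie below the grey and red ones for all genes but LOC101060341, where HCC827ER is lowest at 5.83 CPM.

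Chromosome 13 stood apart as a whole chromosome. Its 167 genes with at least 10 CPM in HCC827ER or HCC827GR had a median log2 ratio of -1.04 between these lines, the lowest of any chromosome. Of these genes 144 were lower in HCC827ER. The median was 0.77 for HCC827GR over HCC827, with 159 of 167 genes above the parent, and -0.21 for HCC827ER over HCC827. After centring by length and GC the median between the derived lines was -0.76. HCC827GR was therefore the line that stood apart from HCC827. BIVM was at 29.1 CPM in HCC827, 157 in HCC827GR and 31.9 in HCC827ER. RB1 and BRCA2, described above, lie on the same chromosome. The 2 places were picked out of 87 runs of neighbours on many chromosomes after their values had been seen. When runs were called afresh on values centred by length and GC there were 19, some of them at other places.

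**Figure D4:**
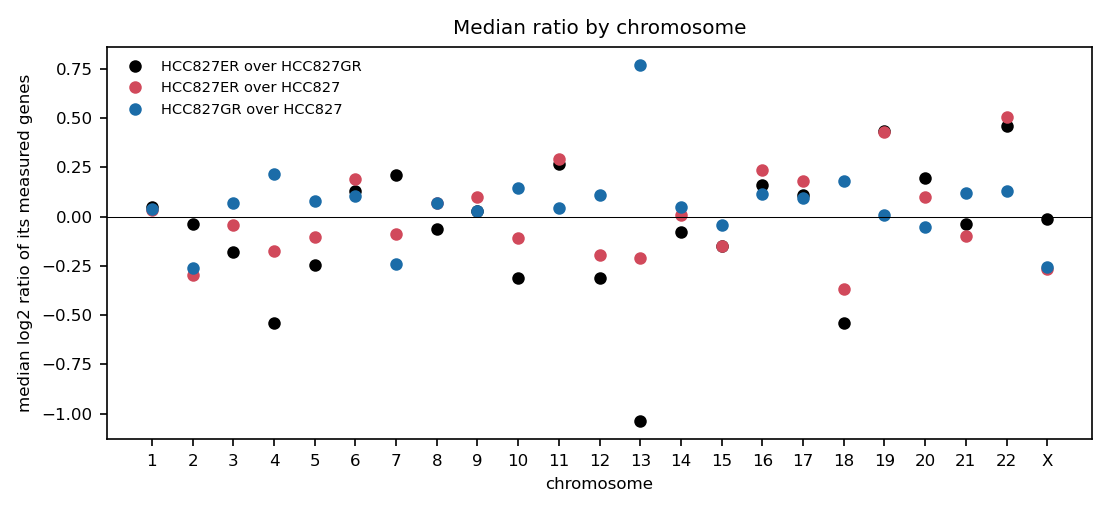
Median log2 ratio of the genes of each chromosome with at least 10 CPM in HCC827ER or HCC827GR, for HCC827ER over HCC827GR (black), HCC827ER over HCC827 (red) and HCC827GR over HCC827 (blue). On chromosome 13 the blue point is at 0.77 and the black point at -1.04, while the red point is at -0.21.

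Epithelial genes were depleted in HCC827GR and partly kept in HCC827ER. Of 43 measured genes of epithelial junctions and identity, 27 were at least 2-fold higher in HCC827ER than in HCC827GR and 4 lower, against 18.1% and 18.4% of all genes, with a median log2 ratio of 1.68 (1.30 after centring). In HCC827GR 34 of the 43 were at least 2-fold below the parent and 0 above, against 7.68% and 8.07% of all genes, with a median of -2.46. In HCC827ER 25 were below and 0 above, against 17.7% and 18.2% of all genes, with a median of -1.5. Both derived lines were thus under HCC827, HCC827GR by more. CLDN7, a tight junction claudin, was at 225 CPM in HCC827, 3.4 in HCC827GR and 64.8 in HCC827ER (log2 ratio 4.20, interval 3.86 to 4.67). EPCAM, the epithelial adhesion molecule, was at 440, 26.8 and 130 CPM. JUP, plakoglobin of desmosomes, was at 360, 24.7 and 197 CPM. RAB25, an epithelial recycling GTPase, was at 38.1 CPM in HCC827, 0 in HCC827GR and 8.35 in HCC827ER, at least 45.1-fold higher than the floor of HCC827GR. Among the listed genes RAB25, OVOL1 and EHF were under 1 CPM in HCC827GR. They passed the filter through HCC827ER alone and could not have been counted as lower.

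Regulators of the epithelial state varied. ESRP1, an epithelial splicing factor, was at 224 CPM in HCC827, 1.3 in HCC827GR and 17.3 in HCC827ER. GRHL2, a transcription factor of epithelial genes, was at 55.3, 0.185 and 3.16 CPM, where the HCC827GR value is 3 counts and the log2 ratio of 3.42 had an interval of 2.45 to 6.42. ELF3, an epithelial ETS factor, was at 241, 28.7 and 336 CPM, with HCC827ER the highest of the 3 lines. KLF5, an epithelial zinc finger factor, was at 86.7, 57.1 and 28.2 CPM, with HCC827ER the lowest. CDH1, E-cadherin, was at 590, 107 and 156 CPM, a log2 ratio of 0.55 that is short of 2-fold. The 4 genes lower in HCC827ER were KRT7, DSP, KLF5 and PKP2. KRT7, a simple epithelial keratin, was at 4056, 2371 and 1039 CPM, and DSP, desmoplakin, at 162, 108 and 41.8. Of these 4 only 1 stayed past 2-fold lower after centring.

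The promoter of RAB25 is printed because the transcript had 0 counts in HCC827GR. Capitals mark CAGGTG, the E-box that ZEB and SNAI repressors are known to bind, here read on the opposite strand (RefSeq, GRCh38.p14).
RAB25, chr1:156060910-156061159, plus strand: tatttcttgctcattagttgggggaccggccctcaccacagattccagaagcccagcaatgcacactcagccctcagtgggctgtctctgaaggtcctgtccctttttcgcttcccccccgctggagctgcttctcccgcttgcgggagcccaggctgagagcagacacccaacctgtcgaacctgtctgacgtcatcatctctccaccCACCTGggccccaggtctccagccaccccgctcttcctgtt
The match lies 41 bases before the start site. Not every epithelial promoter cut in this way held the letters. CLDN7, in 250 bases, and EHF, in entries of 250 and 148 bases, had 0 matches. SPINT1 had 1 match in an entry of 89 bases and 0 in another of 220. Of 32 promoter entries of the epithelial list, read over the full 250 bases, 18 held CAGGTG on either strand (56.2%), against 17.5% of all entries.

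Mesenchymal genes did not differ as a set. Of 24 measured, 4 were higher in HCC827ER than in HCC827GR and 6 lower, against 18.1% and 18.4% of all genes, with a median log2 ratio of 0.03 that turned to -0.36 under total-count scaling and after centring. VIM, vimentin, was at 93.7 CPM in HCC827, 860.2 in HCC827GR and 878 in HCC827ER, so both derived lines stood far above the parent at nearly the same level. ZEB1, a repressor of epithelial genes, was at 6.12, 34.1 and 9.9 CPM, and ZEB2 at 0.395, 11.9 and 6.32. FN1, fibronectin, was at 140, 44.1 and 174 CPM. Of fibroblast markers 3 of 12 were measured, with summed levels of 8.62, 20.5 and 9.9 CPM, and of leukocyte markers 5 of 20, with summed levels of 68.3, 92.8 and 161 CPM, most of it CD68, while the T-cell marker CD3E was at 0 in both derived lines.

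Genes of secretory epithelium had the largest median ratio among the lists drawn up for this work other than the acute-phase set. Of 10 measured trefoil, mucin and secretory genes 7 were higher in HCC827ER and 1 lower, against 18.1% and 18.4% of all genes, with a median log2 ratio of 3.11 (2.67 after centring). LCN2, described above, is 1 of the 7. The median was -4.33 for HCC827GR over HCC827 and -0.76 for HCC827ER over HCC827. MUC1, a membrane mucin, was at 66.2 CPM in HCC827, 3.28 in HCC827GR and 36.2 in HCC827ER. SLPI, a secreted protease inhibitor, was at 7.44, 0.0618 and 9.2 CPM, the HCC827GR value being 1 count. MUC5B, a gel-forming airway mucin, was at 26.3, 0.247 and 8.56 CPM. SLPI and MUC5B passed the filter of 1 CPM through HCC827ER alone, so the count and the median are in part set by the filter. CREB3L1, a secretory pathway transcription factor, was the gene on the other side, at 2.04, 8.59 and 1.26 CPM. TFF3, a trefoil factor, is listed in the first table only, at 0 in HCC827 and HCC827GR.

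Many detoxifying enzymes were higher in HCC827ER. Of 34 measured drug-metabolising enzymes and transporters 17 were higher than in HCC827GR and 2 lower, against 18.1% and 18.4% of all genes, with a median log2 ratio of 1.04 that was 1.28 after centring. UGT1A10 and CYP4F11 had 0 counts in HCC827GR, passed the filter through HCC827ER alone and could not have been counted as lower. AKR1C1, an aldo-keto reductase, was at 0.527 CPM in HCC827, 1.36 in HCC827GR and 47.4 in HCC827ER, with reads that near-identical AKR1C2 and AKR1C3 may share. AKR1B10, another reductase, was at 30.6, 19.3 and 237 CPM. GSTA1, a glutathione transferase of liver and airway, was at 1.51, 14.5 and 272 CPM. ALDH1A1, a retinal dehydrogenase often used as a marker of drug-tolerant cells, was at 2.24, 173 and 847 CPM. GSTA1, ALDH1A1 and AKR1C1 were more than 2-fold above the parent in both derived lines, and AKR1B10 in HCC827ER alone. The drug transporters differed among themselves. ABCC3 was at 137, 140 and 441 CPM, ABCB1 at 15.3, 78.9 and 57.4, and ABCG2 at 6.91, 2.04 and 0.491.

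Hippo pathway genes tended to be lower in HCC827ER. This pathway restrains the coactivators YAP and TAZ, which act through TEAD factors. Of 30 measured components 1 was higher in HCC827ER than in HCC827GR and 14 lower, against 18.1% and 18.4% of all genes, with a median log2 ratio of -0.69. Many of these transcripts are long, and after centring the median was -0.33 with 6 lower and 2 higher. YAP1 was at 113 CPM in HCC827, 100.3 in HCC827GR and 48.5 in HCC827ER, and WWTR1, which encodes TAZ, at 217, 214 and 123. TEAD1 was at 90.4, 89.7 and 19 CPM, and TEAD2, the 1 component that was higher, at 12.5, 8.53 and 38.5. Of 22 measured YAP and TAZ targets 1 was higher and 8 lower, read against the same shares, with a median of -0.62 and of -0.63 after centring. CCN2, a matricellular target, was at 29.8, 15.5 and 2.74 CPM, and F3, tissue factor, at 1016, 192 and 47.1. IGFBP3, the target on the other side, was at 150, 5.19 and 27 CPM, and lies in the run of chromosome 7 genes described above.

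Ribosomal protein and respiratory chain genes, which have short transcripts, were higher in HCC827ER. Of 79 cytosolic ribosomal protein genes 70 were at least 2-fold higher in HCC827ER than in HCC827GR and 0 lower, against 18.1% and 18.4% of all genes here and for the lists that follow, with a median log2 ratio of 1.54. They took 7.7% of all counts in HCC827GR, 8.56% in HCC827 and 16.2% in HCC827ER. After centring by length and GC the median was 0.81 and 31 were at least 2-fold higher. RPL34 was at 254 CPM in HCC827, 229 in HCC827GR and 1078 in HCC827ER. Of 69 oxidative phosphorylation genes 40 were higher and 0 lower, with a median of 1.26 that was 0.52 after centring, when 15 were higher. NDUFA4, a small subunit of the respiratory chain, was at 124, 75.7 and 342 CPM, whereas SDHA, a subunit of complex II with a longer transcript, had a log2 ratio of -0.24. PC-9ER against PC-9 moved the same way by less, with medians of 0.36 over ribosomal protein genes and 0.53 over oxidative phosphorylation genes. Mitochondrial ribosomal protein genes, 12 of 53 higher and 0 lower with a median of 0.67, had a median of -0.02 after centring. Translation factors and hosts of the same mRNA class, whose transcripts are longer, had 6 of 15 higher and 0 lower, with a median of 0.93 and of 0.59 after centring. Among them HNRNPA1 and PABPC1, RNA-binding protein genes, had log2 ratios of -0.66 and -0.57.

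**Figure D5:**
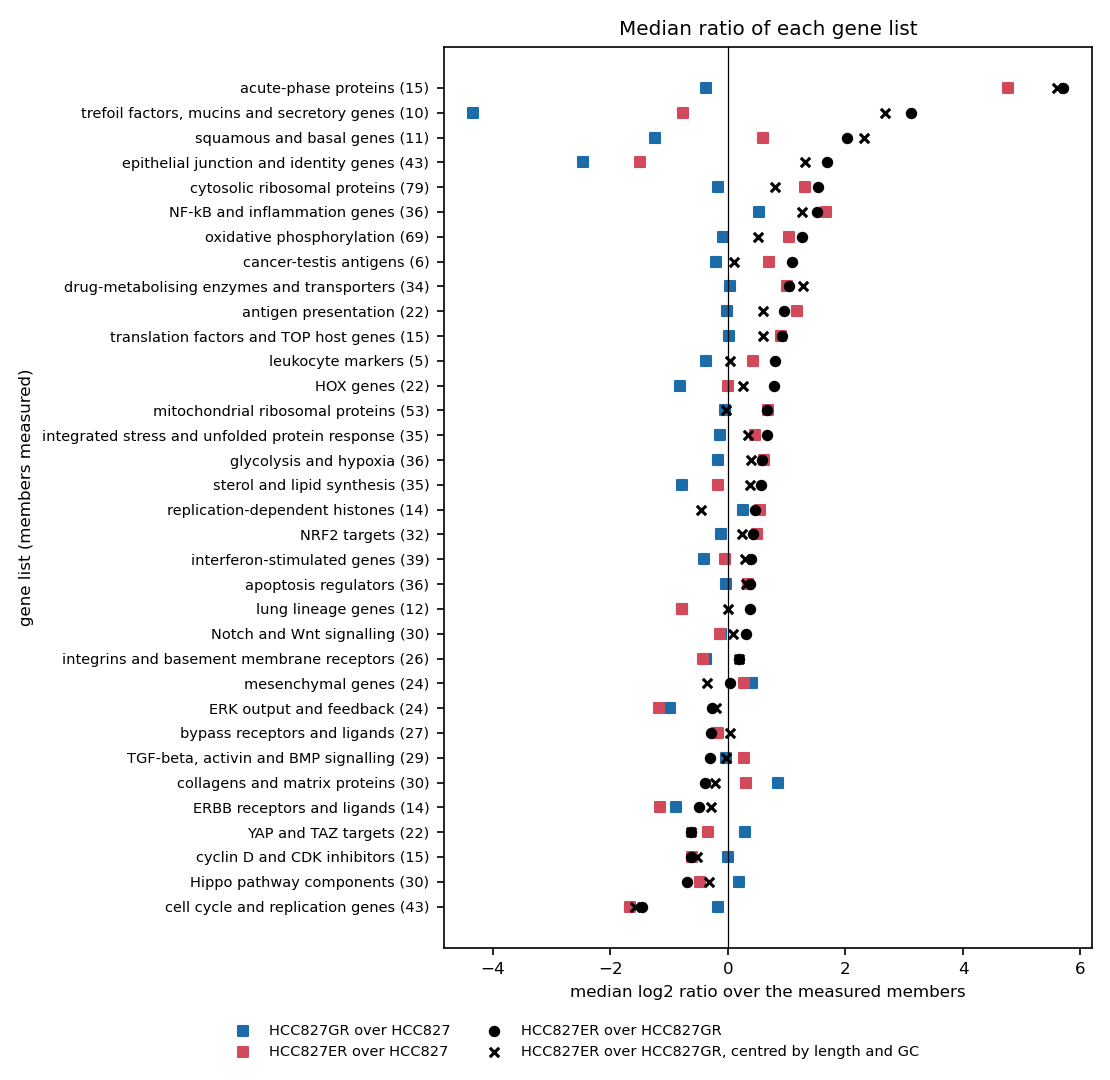
Median log2 ratio over the measured members of each gene list with at least 5 measured, for HCC827GR over HCC827 (blue squares), HCC827ER over HCC827 (red squares) and HCC827ER over HCC827GR (black circles, and crosses after centring by transcript length and GC). Acute-phase proteins are at the top with a median of 5.69 and cell cycle genes at the bottom with -1.46, and for the epithelial list both squares lie below 0.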

How the data were processed

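RNA was measured by sequencing of total RNA depleted of ribosomal RNA, with a strand-specific kit, per the labels' protocols. The deposited values are expected counts per gene in 2 tables, rounded here to whole numbers. HISAT2 2.0.4, Cuffdiff and GRCh38.p13 are named, per the submitters' processing notes, without their roles; which program produced these values is not stated there. The first table lists 16854 genes and the second 16306; the 854 and 306 genes in 1 table alone were left out. Libraries were scaled by TMM (edgeR 4.0.16 in R 4.3.3) over all 6 libraries, and ratios used a prior count of 2. No test was made, since each line has 1 library. The intervals are exact conditional binomial intervals of the 2 counts. Steps were tested on simulated data. Transcript length and GC are those of the longest protein-coding transcript in GENCODE 29, known for 99.2% of measured genes; centring took off the median of genes in the same of 10 bins of length and 5 of GC.

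The members, the 38 gene lists and the rules were chosen with earlier results of these data known, and the acute-phase list after these ratios had been seen. Named genes were a fixed set of key genes, the 15 highest and 15 lowest ratios with at least 10 CPM in the higher line, the 5 extremes of each pattern against HCC827, the 3 highest and 3 lowest members of each list, and genes of chromosome runs. Other members are named as examples of their list, and SPP1 was added. Runs are windows of 11 neighbouring genes with a median of at least 1 on the log2 scale, joined where they touch, over 9871 placed genes. Alternatives were total counts, totals without ribosomal protein genes, DESeq2 1.42.0 size factors, TMM over 3 libraries, a prior count of 0.5, other filters and folds, and centring by length or by length and GC, the last 2 added after seeing the data. The list of long nuclear noncoding RNAs had 0 members in both tables.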

Additional observations from a re-analysis of the deposited data

Results flagged for a closer look

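Cell cycle and replication genes stood on opposite sides of the parent in the ER lines of the 2 parents. Their median log2 ratio was -1.67 for HCC827ER over HCC827 and 0.50 for PC-9ER over PC-9, where 4 of the 43 were at least 2-fold higher and 0 lower. Over all genes, 5% were higher and 6.23% lower in PC-9ER than in PC-9. The difference between the 2 medians was not tested, since each line has 1 library.

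Among the genes that only the second table lists, 1 had at least 10 CPM in HCC827ER. It was H2AC19, a histone H2A gene with near-identical copies, at 417.4 counts or 29.3 CPM, and it has no value for HCC827 or HCC827GR here.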

How the results depend on the processing

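No paired analysis was possible because each line has 1 library and the labels give no replicate numbers. Of the 4577 genes that differed at least 2-fold between the derived lines, 49.6% were higher in HCC827ER. Total counts in place of TMM shifted the median ratio by -0.39 on the log2 scale and gave 1366 genes higher and 3634 lower, a share of 27.9% higher, and totals without ribosomal protein genes shifted it by -0.25 (35.1% higher). At 4-fold in place of 2-fold, 625 genes were higher and 470 lower, 467 in place of 2571 had moved in HCC827ER alone, and 2 in place of 9 of the main lists had a median past the fold. Values centred by transcript length gave 26 chromosome runs, and values centred by length and GC gave 19 runs and 1424 genes lower, against 87 runs and 2306 genes without centring. These were called afresh and include runs and genes not called before; the cause was not tested. Under the last, CFLAR turned from -1.08 to 0.028 and XAGE1B, a near-copy of XAGE1A, from 1.08 to -0.0019. DESeq2 size factors and TMM over the 3 HCC827 libraries shifted the median by 0.03 and -0.01. Depth limits the genes with 3 counts or fewer in HCC827GR, whose ratios are given with wide intervals or as bounds.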

Other observations

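Counts here are again read against 18.1% of all measured genes higher in HCC827ER than in HCC827GR and 18.4% lower. Of 11 measured squamous and basal epithelial genes 7 were higher and 2 lower, with a median log2 ratio of 2.03. LY6D, a surface protein of stratified epithelium, was at 111 CPM in HCC827, 0.433 in HCC827GR and 22.7 in HCC827ER, and KRT17, a basal keratin, at 0.197, 0.371 and 14.7. Both passed the filter of 1 CPM through HCC827ER alone. DSC3, a desmosomal cadherin, was on the other side, at 3.23, 25 and 7.37 CPM. Of 6 measured cancer-testis antigens 4 were higher and 1 lower, with a median of 1.10 that was 0.11 after centring by length and GC. Of 35 sterol and lipid synthesis genes 11 were at least 2-fold higher in HCC827ER than in HCC827GR and 1 lower. In HCC827GR 13 of the 35 were at least 2-fold below HCC827, against 7.68% of all genes. TM7SF2, a sterol reductase, was at 5.27 CPM in HCC827, 3.58 in HCC827GR and 63.3 in HCC827ER. Of 35 genes of the integrated stress and unfolded protein responses 13 were higher and 3 lower, with a median of 0.67. After centring by length and GC 7 were higher and 2 lower, with a median of 0.33. GDF15, a stress cytokine, was at 14.7, 9.95 and 171 CPM, and the chaperone gene HSP90B1 at 942, 814 and 346. Of 39 interferon-stimulated genes 13 were higher and 4 lower, among them IFI6 at 7.64, 7.17 and 34 CPM and OAS3 at 85.2, 57.8 and 25.1.

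Of 30 collagens and matrix proteins 5 were higher in HCC827ER and 10 lower. In HCC827GR 13 of the 30 were at least 2-fold above HCC827, against 8.07% of all genes. THBS1, thrombospondin-1, was at 179 CPM in HCC827, 484 in HCC827GR and 88.8 in HCC827ER, and COL4A1, a basement membrane collagen on chromosome 13, at 28.1, 252 and 72.6. Of 36 apoptosis regulators 11 were higher and 5 lower, with BMF, a pro-apoptotic gene, at 14, 4.51 and 26.3 CPM and BIRC2, an inhibitor of apoptosis, at 50, 103 and 29.8. BCL2 was at 0.132 CPM in HCC827, 15 in HCC827GR and 13 in HCC827ER, above the parent in both derived lines.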
